A study of Mus musculus with 15 samples.

Results

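The 49 genes described here carry glucose carbon through glycolysis, the pentose phosphate pathway and the tricarboxylic acid (TCA) cycle. They are a named list of 22 glycolysis, 6 pentose phosphate, 16 TCA cycle and 5 side-reaction genes, chosen by name out of 20453 genes in the deposited count table. Each gene was read from its transcript with the highest mean count, and all 49 passed the filter on low counts that left 14542 genes for testing.

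Glycolysis splits glucose into pyruvate in the cytosol, and lactate dehydrogenase turns pyruvate into lactate, which monocarboxylate transporters carry across the cell membrane. The pentose phosphate pathway branches off at glucose 6-phosphate and yields NADPH and ribose 5-phosphate; in neutrophils that NADPH feeds the oxidative burst. The TCA cycle oxidises acetyl-CoA made from pyruvate in mitochondria, which are few in mature neutrophils and more prominent in their dividing progenitors.

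RNA was sequenced from mouse bone marrow of the C57BL/6 strain, in 14 libraries that form 4 groups. LTearly (4 libraries), LTlate (3) and BMTGMP (3) are called here the MLL-AF9 groups, after the leukaemia fusion gene named in the series title, and wtGMP (4) is the group they were set against. Per the labels' protocols, a human MLL-AF9 cDNA was placed in A2Lox-cre targeting cells with doxycycline-activated Cre, selected clones gave chimeric mice backcrossed to C57BL/6, and double heterozygous females were used. The same protocols describe depletion of marrow cells bearing Cd5, Cd11b, B220, Gr-1 or Ter119 and sorting gates for granulocyte-macrophage progenitors (GMP: c-Kit+, Cd34+, Sca-1-, with high FcγRII/III) and for long-term stem cells (c-Kit+, Sca-1+, Cd150+, Cd34- and Cd48-). The labels spell out none of the group names and do not tie a gate, an age, a doxycycline dose or an animal to a library, so p-values measure only the spread between libraries, which may be technical. Titles of the MLL-AF9 libraries also end in codes that the labels do not explain. Some share an ending, such as D2 in LTearly replicate 1 and LTlate replicate 3. No comparison used these codes, so a shared origin behind them was not tested. One further library, titled as an LTearly sample but heading a column named LTlate, entered no comparison.

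Counts on named genes ran from 2469470 to 15093009 per library, and within-group rank correlations were lowest in LTearly (0.861 to 0.903, against 0.908 to 0.956 in the other 3 groups). Libraries of the 3 MLL-AF9 groups differed from wtGMP in maturation markers: 13 late-neutrophil genes such as Ngp and Camp summed to 13890 to 28040 CPM (counts scaled to library size) in LTearly, 6327 to 11100 CPM in LTlate and 1846 to 7589 CPM in BMTGMP, against 117 to 215 CPM in wtGMP. Of these 13, 13 rose in LTearly, 12 in LTlate and 10 in BMTGMP. The 8 GMP and stem cell gate genes summed to 449 to 617 CPM in LTearly, 739 to 825 CPM in LTlate and 322 to 443 CPM in BMTGMP, against 725 to 974 CPM in wtGMP, with 0 that rose and 2 that fell in LTearly, 2 and 1 in LTlate, and 0 and 1 in BMTGMP. Of that set, Kit had 26.7, 55.2, 31.6 and 91.6 CPM in LTearly, 7.92, 32.9 and 27.5 CPM in LTlate and 50.1, 59.3 and 90.7 CPM in BMTGMP libraries, against 237, 195, 184 and 157 CPM in wtGMP libraries. Kit does not stand for the set in LTlate, where the sum of the 8 genes lay within the wtGMP range. The stem cell gate's Cd150 gene Slamf1 was at 0 in every LTlate and wtGMP library and reached 3.67 CPM in 1 LTearly library, and Ly6a, a gene for Sca-1, stayed at or below 16.5 CPM. The 11 measured monocyte and macrophage markers summed to 1271 to 2320 CPM in LTearly, 1164 to 1982 CPM in LTlate and 591 to 1694 CPM in BMTGMP, against 1818 to 2091 CPM in wtGMP. Of these 11, 3 rose in LTearly, 3 in LTlate and 1 in BMTGMP, and 0 fell in each. The 6 eosinophil, basophil and mast cell markers summed to 8.57 to 32.3 CPM in LTearly, 91.9 to 312 CPM in LTlate and 4.40 to 6.98 CPM in BMTGMP, against 155 to 282 CPM in wtGMP, and 2 of them fell in LTearly, 1 in LTlate and 4 in BMTGMP. The 7 measured erythroid markers summed to 49.03 to 84.21 CPM in LTearly, 43.9 to 58.4 CPM in LTlate and 90.5 to 141 CPM in BMTGMP, against 101 to 177 CPM in wtGMP, and 1 fell in LTearly and 1 in LTlate. The 7 T and NK cell markers summed to 7.74 to 21.3 CPM in LTearly, 6.37 to 9.93 CPM in LTlate and 3.35 to 9.58 CPM in BMTGMP, against 17.7 to 26.0 CPM in wtGMP, and the 6 B cell markers stayed at or below 25.0 CPM in every library. In such bulk samples fewer cells of a type and less RNA per cell cannot be told apart, and the part of these marker differences in the results on metabolic genes was not tested.

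The 3 pathways did not move alike. Against wtGMP, with edgeR's quasi-likelihood test and Benjamini-Hochberg adjustment over all 14542 genes (adjusted p under 0.05), 7 of the 49 genes rose and 11 fell in LTearly, where 20.1% of all genes were called, 11.1% higher and 8.93% lower. In LTlate 7 rose and 2 fell, where 10.8% of all genes were called, 7.53% higher and 3.25% lower. In BMTGMP 2 rose and 4 fell, where 6.58% were called, 4.41% higher and 2.17% lower. The balance of directions in BMTGMP turned in 4 settings: 5 rose and 2 fell with library totals in place of TMM scaling, 3 rose and 1 fell without BMTGMP replicate 4, and 2 rose and 1 fell without wtGMP replicate 1 or with transcripts summed per gene. With DESeq2 it was 5 and 5 in BMTGMP and 8 and 5 in LTlate. In BMTGMP 2 rose and 2 fell with a filter of 1 CPM in 3 libraries, with a replicate block and with thinned libraries. The same counts came without BMTGMP replicate 2 and without wtGMP replicate 3 or 4. With only the groups compared in the fit, 11 rose and 12 fell in LTlate. Without LTlate replicate 2 the LTlate comparison called 5 members in all, beside 921 genes. Without wtGMP replicate 1 the BMTGMP comparison called 3 members, beside 776 genes. All 3 comparisons share the wtGMP libraries, so they are given side by side and not as independent support for each other. With the 3 MLL-AF9 groups averaged, 7 genes rose and 10 fell, where 16.8% of all genes were called, 9.21% higher and 7.58% lower, and 11 members were called without wtGMP replicate 3 or without wtGMP replicate 4. Rises, falls and tests passed are those of this edgeR fit unless another is named. In 36 pairs of a member and 1 of these 4 comparisons that it did not call, at least 1 alternative did. The same count over all genes was not made.

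Those calls were divided by pathway. Of the 22 glycolysis genes, 3 rose and 2 fell in LTearly, 5 rose and 1 fell in LTlate, and 1 rose and 1 fell in BMTGMP. Pentose phosphate genes gave rises without falls, with 3 of 6 in LTearly, 1 in LTlate and 0 in BMTGMP (3 of the 6 had an unadjusted p under 0.05 there, as did 2833 of all 14542 genes, and DESeq2 called 3). Of the 16 TCA cycle genes none rose in any comparison with wtGMP, while 9 fell in LTearly, 1 in LTlate and 3 in BMTGMP. The counts of the last 2 groups moved with the processing: 7 TCA genes fell in LTlate when only the groups compared were fitted, and 0 did with transcripts summed per gene, with thinned libraries, with no low-count filter, with a filter of 1 CPM in 3 libraries, or without any 1 of the LTlate libraries or wtGMP replicate 1, 3 or 4. In BMTGMP 0 fell with transcripts summed per gene and without BMTGMP replicate 4 or wtGMP replicate 1, and 1 fell with library totals in place of TMM. Median log2 fold changes of the TCA genes were -0.70 in LTearly, -0.40 in LTlate and -0.38 in BMTGMP, beside 0.22, 0.00 and 0.07 over all genes tested. Without BMTGMP replicate 4 the BMTGMP median of the TCA genes was -0.22, and the LTearly median of all genes was 0.11 without LTearly replicate 1 and 0.05 with only the groups compared. For glycolysis the medians were 0.20, 0.24 and -0.18, and for the pentose phosphate genes 0.41, 0.26 and 0.50.

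**Figure D1:**
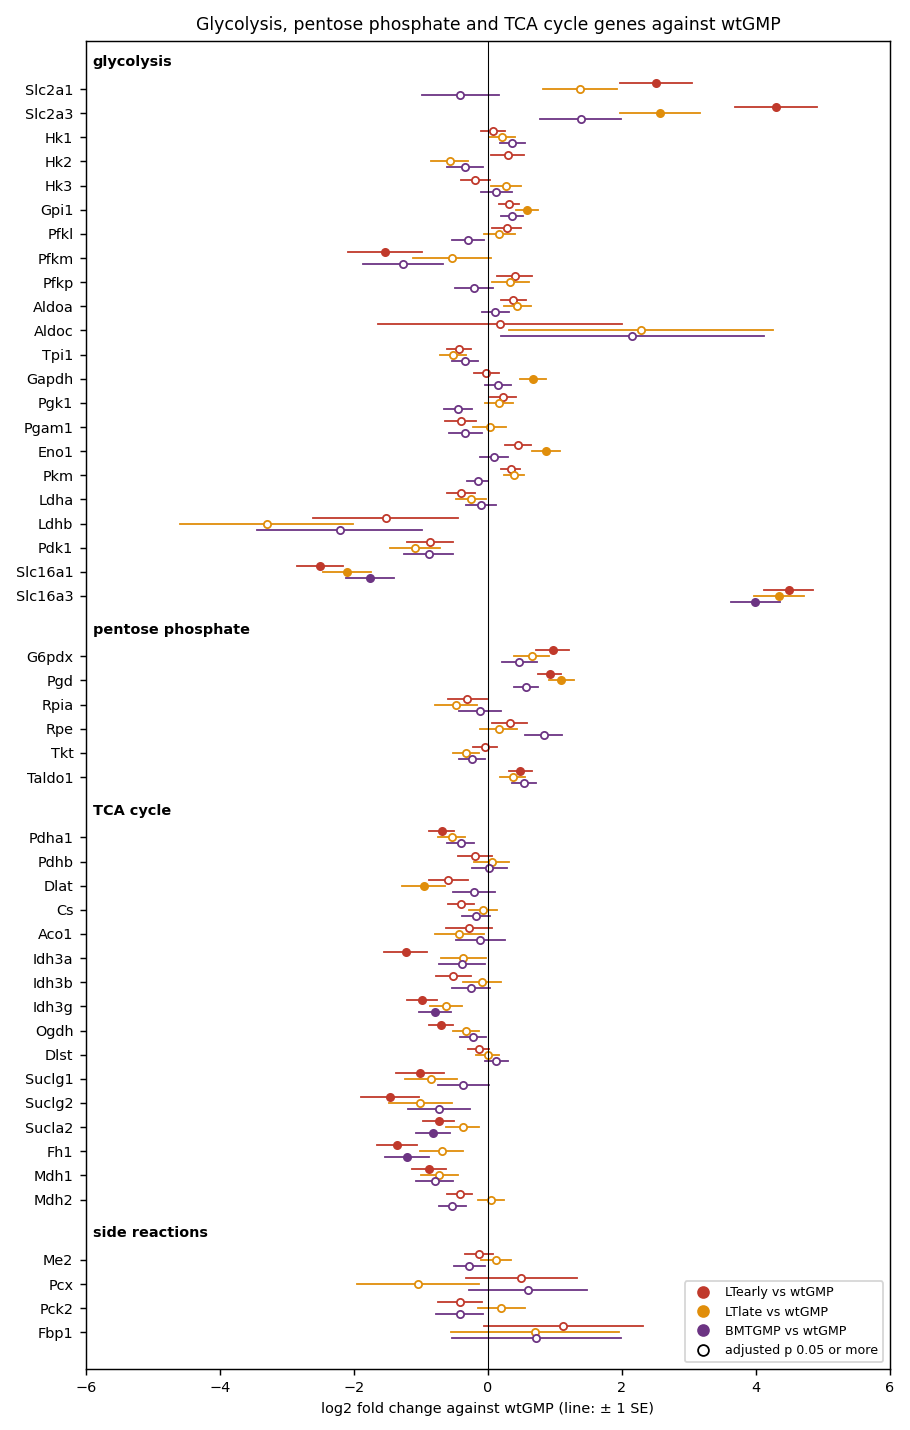
Log2 fold change of each member against wtGMP (horizontal axis, line ± 1 SE) in LTearly, LTlate and BMTGMP, with filled points where edgeR's adjusted p was under 0.05. Slc16a3 lies far to the right and Slc16a1 to the left in all 3 groups, and the 16 TCA cycle genes lie to the left of 0 in LTearly; Slc13a5, without counts in wtGMP, is not drawn.

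Glucose enters the cell through facilitative transporters, and both genes measured here rose in LTearly. Slc2a1, which encodes the basal glucose transporter GLUT1, had 116, 39.4, 37.1 and 23.6 CPM in LTearly, 23.5, 27.4 and 22.9 CPM in LTlate and 8.0, 5.58 and 7.75 CPM in BMTGMP libraries, against 9.75, 18.1, 1.57 and 9.18 CPM in wtGMP libraries. Every LTearly and LTlate library lay above every wtGMP library, while BMTGMP lay within the wtGMP range, and LTearly replicate 1 stood well above the other LTearly libraries. Slc2a1 gave log2 fold changes of 2.51 ± 0.54 in LTearly (adjusted p = 0.00194), 1.37 ± 0.55 in LTlate (adjusted p = 0.13) and -0.41 ± 0.58 in BMTGMP (adjusted p = 0.794), so it rose in LTearly.

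Slc2a3, which encodes the high-affinity glucose transporter GLUT3, had 121, 109.5, 187 and 34.1 CPM in LTearly, 47.1, 32.2 and 22.3 CPM in LTlate and 7.44, 20.5 and 17 CPM in BMTGMP libraries, against 6.59, 7.88, 1.12 and 7.60 CPM in wtGMP libraries. The LT libraries again lay above all wtGMP libraries, and the lowest BMTGMP library overlapped the wtGMP range. Slc2a3 gave log2 fold changes of 4.30 ± 0.61 in LTearly (adjusted p = 0.000135), 2.57 ± 0.60 in LTlate (adjusted p = 0.0112) and 1.39 ± 0.60 in BMTGMP (adjusted p = 0.226), so it rose in LTearly and LTlate. The LTlate call ended without LTlate replicate 2 (adjusted p = 0.0542). Counts behind the wtGMP values were small, with 46, 20, 5 and 24 reads for Slc2a3 and 68, 46, 7 and 29 for Slc2a1. Per kilobase of transcript, Slc2a3 made up 62.7% ± 15.4 of the summed level of both transporters in LTearly, 52.0% ± 9.17 in LTlate and 61.0% ± 16.2 in BMTGMP, against 34.9% ± 6.05 in wtGMP (SD, n = 4, 3, 3 and 4).

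The hexokinases, which phosphorylate glucose on entry, passed no test. Hk3, the largest of the 3 per kilobase, averaged 260.2 ± 102 CPM in LTearly, 357 ± 26.3 CPM in LTlate and 322 ± 52.5 CPM in BMTGMP, against 296 ± 44.6 CPM in wtGMP (SD). Hk1 averaged 174 ± 18.6 CPM in LTearly, 191 ± 31.2 CPM in LTlate and 213 ± 30.8 CPM in BMTGMP, against 165 ± 33.1 CPM in wtGMP, and Hk2, the inducible form, 180.1 ± 79.2 CPM in LTearly, 98.8 ± 20.8 CPM in LTlate and 116 ± 2.16 CPM in BMTGMP, against 147 ± 27.8 CPM in wtGMP. Log2 fold changes of the 3 hexokinases ran from -0.19 to 0.30 in LTearly, -0.57 to 0.27 in LTlate and -0.34 to 0.36 in BMTGMP.

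Among the upper steps, Gpi1, which isomerises glucose 6-phosphate to fructose 6-phosphate, had 506, 522, 452 and 695 CPM in LTearly, 691, 609 and 656 CPM in LTlate and 508, 641 and 528 CPM in BMTGMP libraries, against 428, 471, 447 and 402 CPM in wtGMP libraries. All LTlate and BMTGMP libraries lay above wtGMP, and 1 of 4 LTearly libraries fell inside the wtGMP range. Gpi1 gave log2 fold changes of 0.32 ± 0.15 in LTearly (adjusted p = 0.147), 0.58 ± 0.16 in LTlate (adjusted p = 0.0199) and 0.35 ± 0.16 in BMTGMP (adjusted p = 0.232). It therefore rose in LTlate, a call that ended without LTlate replicate 2 or 4 or wtGMP replicate 4 (adjusted p = 0.0709 to 0.105). Averaged over the 3 MLL-AF9 groups it rose by 0.42 ± 0.13 (adjusted p = 0.0272), a call that ended without LTlate replicate 2, 3 or 4, BMTGMP replicate 2 or wtGMP replicate 1, 3 or 4 (adjusted p = 0.0522 to 0.112).

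Phosphofructokinase commits the sugar to glycolysis, and its 3 genes differed. Pfkm, named for its muscle isoform, had 2.94, 5.33, 9.91 and 5.86 CPM in LTearly, 12.3, 8.19 and 15.3 CPM in LTlate and 6.88, 5.32 and 9.43 CPM in BMTGMP libraries, against 21.2, 9.84, 17.7 and 20.6 CPM in wtGMP libraries. The LTearly libraries were mostly lower than wtGMP, and 1 of them reached the lowest wtGMP library. Its log2 fold change in LTearly was -1.54 ± 0.55 (adjusted p = 0.0492), a fall that was lost without LTearly replicate 1, 2 or 4 or wtGMP replicate 1, 3 or 4 (adjusted p = 0.0643 to 0.113). Pfkl had 108, 91.9, 91.4 and 138 CPM in LTearly, 105, 106 and 89.9 CPM in LTlate and 85.4, 82 and 48.8 CPM in BMTGMP libraries, against 77.1, 107, 100.2 and 71.2 CPM in wtGMP libraries. Pfkp had 221, 89, 164 and 71.3 CPM in LTearly, 135, 126 and 128 CPM in LTlate and 88.7, 73.3 and 106 CPM in BMTGMP libraries, against 117, 114, 98.8 and 81.7 CPM in wtGMP libraries. Neither passed a test against wtGMP, although LTlate lay above wtGMP in every library for Pfkp. Pfkm made the smallest contribution, at 3.45% ± 1.62 of the summed phosphofructokinase level per kilobase in LTearly, 6.68% ± 2.10 in LTlate and 5.79% ± 1.77 in BMTGMP, against 11.3% ± 4.18 in wtGMP.

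The later part of glycolysis was led by Pkm, pyruvate kinase, at 1035, 939, 1172 and 946 CPM in LTearly, 1053, 1023 and 1102 CPM in LTlate and 796, 776 and 603 CPM in BMTGMP libraries, against 754, 823, 823 and 833 CPM in wtGMP libraries. LTearly and LTlate lay above wtGMP in every library, and BMTGMP overlapped the lower part of its range. Pkm gave log2 fold changes of 0.34 ± 0.14 in LTearly (adjusted p = 0.0855), 0.39 ± 0.15 in LTlate (adjusted p = 0.0994) and -0.16 ± 0.15 in BMTGMP (adjusted p = 0.653), so edgeR's test called no group against wtGMP. DESeq2 called Pkm in LTearly (0.40, adjusted p = 0.00502) and in LTlate (0.37, adjusted p = 0.0281), and edgeR called it in LTlate when only those groups were fitted (adjusted p = 0.00739). The 2 Pkm transcripts in the table had nearly the same counts (ratio of their mean counts 0.983), so the M1 and M2 isoforms cannot be told apart. Eno1, an enolase, had 318, 296, 245 and 282 CPM in LTearly, 398, 389 and 356 CPM in LTlate and 205, 330.0 and 132 CPM in BMTGMP libraries, against 185, 216, 223 and 214 CPM in wtGMP libraries. All LT libraries lay above wtGMP, and BMTGMP spread across it. Eno1 rose in LTlate, with log2 fold changes of 0.45 ± 0.20 in LTearly (adjusted p = 0.11), 0.86 ± 0.21 in LTlate (adjusted p = 0.00594) and 0.09 ± 0.21 in BMTGMP (adjusted p = 0.908).

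Gapdh, which makes the first NADH of the pathway, averaged 158 ± 11.8 CPM in LTearly, 255 ± 23.4 CPM in LTlate and 177 ± 54.6 CPM in BMTGMP, against 160.2 ± 15 CPM in wtGMP (SD), and its log2 fold change in LTlate was 0.67 ± 0.19 (adjusted p = 0.0235), a rise that was lost without LTlate replicate 2 or 3 or wtGMP replicate 2 or 4 (adjusted p = 0.0606 to 0.13). Tpi1, triose phosphate isomerase, moved the other way, with 174, 152, 158 and 169 CPM in LTearly, 144, 162 and 152 CPM in LTlate and 169, 225 and 127 CPM in BMTGMP libraries, against 173, 221, 252 and 233 CPM in wtGMP libraries. The LTlate libraries lay below all wtGMP libraries, and the other groups overlapped. Averaged over the 3 MLL-AF9 groups Tpi1 fell by 0.43 ± 0.15 (adjusted p = 0.0453) on the log2 scale, a call lost without LTearly replicate 2, LTlate replicate 2, 3 or 4, BMTGMP replicate 1 or 4 or wtGMP replicate 2, 3 or 4 (adjusted p = 0.0592 to 0.184). Aldoa, the main aldolase, Pgk1, phosphoglycerate kinase, and Pgam1, phosphoglycerate mutase, passed no test, with log2 fold changes of -0.41 to 0.38 in LTearly, 0.03 to 0.44 in LTlate and -0.45 to 0.11 in BMTGMP. Aldoc, another aldolase, was at 0 in 3 of 4 wtGMP libraries and averaged 0.891 ± 0.586 CPM in LTearly, 3.97 ± 4.11 CPM in LTlate and 3.60 ± 3.73 CPM in BMTGMP, against 0.784 ± 1.57 CPM in wtGMP. Gapdh, Ldha, Eno1 and Pgam1 had non-whole counts in 14 of 14 libraries, Pgk1 and Pkm in 13, Aldoa in 11, Gpi1 in 9 and Tpi1 in 7, and of the other pathways Ogdh in 12 and Taldo1 and Aco1 in 10. A non-whole count comes from reads divided among several hits, so the levels of these genes are uncertain.

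The smallest adjusted p-values of the 49 genes, over the 3 MLL-AF9 groups averaged, belonged to the lactate transporters. Slc16a3, which encodes MCT4, the low-affinity carrier known for lactate export from glycolytic cells, had 86.9, 56.5, 74.2 and 33.5 CPM in LTearly, 47.9, 69.7 and 53.1 CPM in LTlate and 40.4, 50.7 and 42.1 CPM in BMTGMP libraries, against 3.87, 1.97, 2.02 and 2.85 CPM in wtGMP libraries. Slc16a1, which encodes the broadly expressed MCT1, had 24.2, 11.7, 8.44 and 14.9 CPM in LTearly, 16, 13.2 and 29.9 CPM in LTlate and 22.3, 27 and 26.2 CPM in BMTGMP libraries, against 70.7, 74.4, 105 and 90.2 CPM in wtGMP libraries. No library of an MLL-AF9 group overlapped a wtGMP library for either gene, and the directions were opposite. Slc16a3 rose by log2 fold changes of 4.49 ± 0.37 in LTearly (adjusted p = 9.21e-10), 4.35 ± 0.37 in LTlate (adjusted p = 4.12e-09) and 3.99 ± 0.37 in BMTGMP (adjusted p = 2.35e-08). Slc16a1 gave -2.51 ± 0.34 in LTearly (adjusted p = 4.11e-06), -2.11 ± 0.36 in LTlate (adjusted p = 0.000197) and -1.76 ± 0.36 in BMTGMP (adjusted p = 0.00182), so it fell in all 3 groups. The Slc16a3 values in wtGMP rest on 27, 5, 9 and 9 reads.

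Per kilobase of transcript, Slc16a3 made up 80.3% ± 8.51 of the summed level of the pair in LTearly, 74.7% ± 9.95 in LTlate and 64.3% ± 1.88 in BMTGMP, against 3.24% ± 1.45 in wtGMP (SD, n = 4, 3, 3 and 4). Averaged over the 3 MLL-AF9 groups the log2 fold changes were 4.28 ± 0.34 (adjusted p = 1.04e-09) for Slc16a3 and -2.12 ± 0.25 (adjusted p = 5.64e-07) for Slc16a1. Both genes kept their calls in all 4 of these comparisons with wtGMP under every alternative run. Slc16a3, Slc16a1 and Slc2a1 carry the opposite and group-dependent changes, so their promoters are shown (RefSeq, GRCm38.p6, 250 bases before to 50 after the start, strand + for all 3), with the letters ACGTG, or CACGT on the other strand, in capitals. ACGTG is the core shared by the elements that hypoxia-inducible factors and E-box proteins bind.
Slc16a3 promoter, chr11:120948817-120949116: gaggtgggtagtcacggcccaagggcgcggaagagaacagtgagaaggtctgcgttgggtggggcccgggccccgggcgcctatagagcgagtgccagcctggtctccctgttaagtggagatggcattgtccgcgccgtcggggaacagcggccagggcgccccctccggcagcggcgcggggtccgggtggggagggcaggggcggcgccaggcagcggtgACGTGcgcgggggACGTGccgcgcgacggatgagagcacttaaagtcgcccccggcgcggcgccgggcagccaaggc
Slc16a1 promoter, chr3:104638414-104638713: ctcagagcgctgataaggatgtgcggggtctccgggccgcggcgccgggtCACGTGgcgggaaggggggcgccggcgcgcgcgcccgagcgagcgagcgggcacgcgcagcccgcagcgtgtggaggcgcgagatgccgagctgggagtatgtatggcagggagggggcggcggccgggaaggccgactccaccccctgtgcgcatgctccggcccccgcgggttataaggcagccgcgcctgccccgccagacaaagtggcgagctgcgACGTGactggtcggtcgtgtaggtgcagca
Slc2a1 promoter, chr4:119108495-119108794: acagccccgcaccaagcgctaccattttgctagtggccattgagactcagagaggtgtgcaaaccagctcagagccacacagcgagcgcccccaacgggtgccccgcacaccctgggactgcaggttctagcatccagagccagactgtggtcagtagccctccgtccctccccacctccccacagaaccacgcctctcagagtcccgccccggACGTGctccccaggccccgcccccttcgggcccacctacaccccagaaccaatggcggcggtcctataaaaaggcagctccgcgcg
The letters occur at 2 positions in the Slc16a3 promoter and at 1 in Slc2a1. The Slc16a1 promoter holds 3 matches over both strands, 2 of them in 1 palindromic CACGTG, so the gene that fell holds the letters too. With the first start listed for each gene, 17 of 46 members with a promoter in the table (37.0%) held ACGTG on either strand, against 5315 of 27025 promoters (19.7%). By pathway the counts were 11 of 21 glycolysis, 1 of 6 pentose phosphate, 4 of 15 TCA cycle and 1 of 4 side-reaction genes. With any listed start, 20 of 46 members (43.5%) held it, against 5886 of 27025 genes (21.8%), and 14 of 21 glycolysis genes did. The background holds every gene with a listed promoter, not only the 14542 tested genes. It was not matched to the members for expression or base composition. Slc2a3 had no listed promoter. Such a match is a description of these 300 bases and not a binding site.

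**Figure D2:**
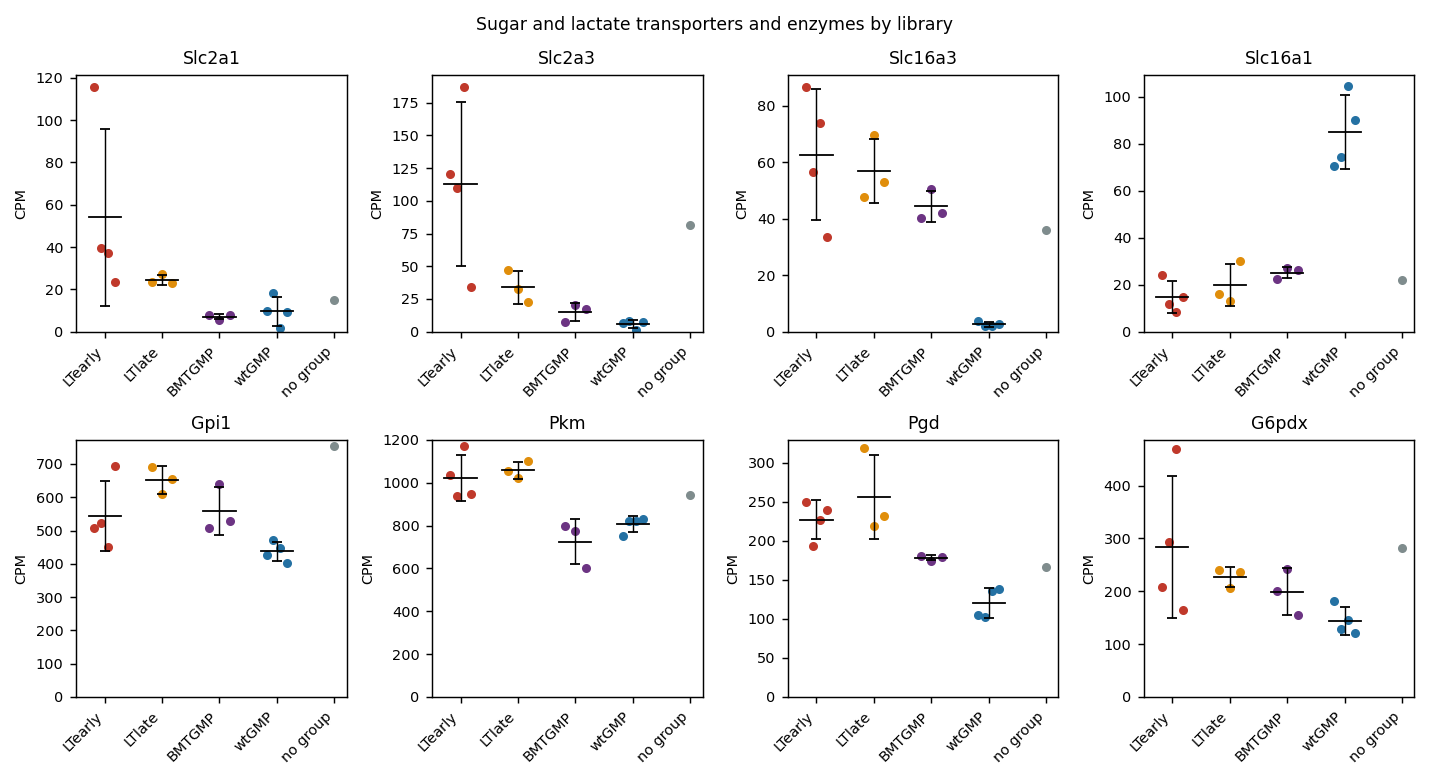
CPM of 8 glycolysis and pentose phosphate genes in each library (points), with group mean ± SD, for LTearly, LTlate, BMTGMP, wtGMP and the library without a group. Slc16a3 lies between 33.5 and 86.9 CPM in the MLL-AF9 groups and below 4 CPM in wtGMP, and Slc16a1 shows the reverse.

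The next genes act on the fate of pyruvate. Ldha, the main lactate dehydrogenase subunit, averaged 144 ± 40.8 CPM in LTearly, 159 ± 17 CPM in LTlate and 176 ± 44.5 CPM in BMTGMP, against 189.8 ± 37.3 CPM in wtGMP (SD) and passed no test. Of the 2 starts listed for Ldha, the first held 5 matches to ACGTG over both strands and the second held 0. Each palindromic CACGTG counts as 2 matches, as in Slc16a1, so the matches lie at fewer sites. Ldhb, the heart-type subunit, had 0, 6.40, 0 and 15.1 CPM in LTearly, 1.63, 0.0871 and 3.04 CPM in LTlate and 2.70, 2.98 and 4.61 CPM in BMTGMP libraries, against 19.5, 22.8, 11.2 and 10.1 CPM in wtGMP libraries. LTlate and BMTGMP lay below wtGMP, while 1 LTearly library reached into the wtGMP range and 2 LTearly libraries were at 0. Ldhb passed no test in the edgeR fit, and its average over the 3 MLL-AF9 groups was -2.35 ± 0.84 (adjusted p = 0.0586). Without LTearly replicate 1, 3 or 4 or LTlate replicate 4 that average was called (adjusted p = 0.0169 to 0.0489). In LTlate Ldhb was called with DESeq2 (-3.35, adjusted p = 0.045) and with only the groups compared (adjusted p = 0.00532).

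Pdk1, a kinase that switches off pyruvate dehydrogenase, had 49.2, 10.4, 26.1 and 36.2 CPM in LTearly, 22.7, 29.1 and 26.8 CPM in LTlate and 26, 38.2 and 25.8 CPM in BMTGMP libraries, against 49.8, 67.3, 45 and 60.5 CPM in wtGMP libraries. LTlate and BMTGMP lay below wtGMP, and LTearly overlapped it. Averaged over the 3 MLL-AF9 groups Pdk1 gave -0.94 ± 0.27 (adjusted p = 0.0158), a fall that was lost without wtGMP replicate 2 or 4 (adjusted p = 0.0548 to 0.0721). No single group passed, with -0.86 ± 0.34 in LTearly (adjusted p = 0.0758), -1.08 ± 0.37 in LTlate (adjusted p = 0.0616) and -0.89 ± 0.37 in BMTGMP (adjusted p = 0.181).

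In the pentose phosphate pathway both NADPH-producing enzymes rose in LTearly. Pgd, the 6-phosphogluconate dehydrogenase downstream of G6pdx, had 249.9, 193, 227 and 239 CPM in LTearly, 318, 219 and 232 CPM in LTlate and 181, 175 and 179 CPM in BMTGMP libraries, against 105, 102, 136 and 138 CPM in wtGMP libraries. All 10 MLL-AF9 libraries lay above all wtGMP libraries. Pgd gave log2 fold changes of 0.92 ± 0.17 in LTearly (adjusted p = 0.000302), 1.09 ± 0.19 in LTlate (adjusted p = 0.000157) and 0.57 ± 0.19 in BMTGMP (adjusted p = 0.0663), and 0.86 ± 0.15 (adjusted p = 0.000159) over the 3 groups. G6pdx, the entry enzyme that makes the first NADPH, had 207, 294, 469 and 164 CPM in LTearly, 240.1, 205 and 237 CPM in LTlate and 201, 242 and 155 CPM in BMTGMP libraries, against 181, 129, 146 and 122 CPM in wtGMP libraries. LTlate lay above wtGMP, while 1 of 4 LTearly and 1 of 3 BMTGMP libraries overlapped it. G6pdx rose in LTearly, with log2 fold changes of 0.97 ± 0.25 in LTearly (adjusted p = 0.00659), 0.65 ± 0.26 in LTlate (adjusted p = 0.126) and 0.47 ± 0.26 in BMTGMP (adjusted p = 0.338). Without LTearly replicate 3 its LTearly value was 0.58 (adjusted p = 0.0473). Its average over the 3 groups was 0.70 ± 0.21 (adjusted p = 0.026), a call lost without wtGMP replicate 2, 3 or 4 (adjusted p = 0.0772 to 0.101).

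The non-oxidative branch, which returns pentoses to glycolysis, was mixed. Taldo1, transaldolase, had 359, 573, 556 and 517 CPM in LTearly, 414, 452 and 520.3 CPM in LTlate and 475, 646 and 442 CPM in BMTGMP libraries, against 346, 305, 377 and 404 CPM in wtGMP libraries. LTlate and BMTGMP lay above wtGMP, and 1 LTearly library was inside its range. Its counts were non-whole in 10 of 14 libraries, as given above, so its level is uncertain. Taldo1 gave log2 fold changes of 0.49 ± 0.17 in LTearly (adjusted p = 0.0428), 0.37 ± 0.18 in LTlate (adjusted p = 0.213) and 0.54 ± 0.18 in BMTGMP (adjusted p = 0.0754), and 0.47 ± 0.15 (adjusted p = 0.0261) over the 3 groups. Its LTearly call was lost without LTearly replicate 2, 3 or 4 or wtGMP replicate 1, 2, 3 or 4 (adjusted p = 0.0504 to 0.132), and the call over the 3 groups without LTlate replicate 4, BMTGMP replicate 2 or wtGMP replicate 1, 2 or 3 (adjusted p = 0.0576 to 0.117). Tkt, transketolase, averaged 571 ± 130.5 CPM in LTearly, 468 ± 57.6 CPM in LTlate and 499 ± 142 CPM in BMTGMP, against 589 ± 68 CPM in wtGMP (SD), and Rpia, ribose 5-phosphate isomerase, 66.8 ± 37.4 CPM in LTearly, 59.8 ± 15.2 CPM in LTlate and 77.1 ± 10.2 CPM in BMTGMP, against 83.5 ± 11 CPM in wtGMP. Neither passed a test. Rpe, ribulose-phosphate epimerase, averaged 48.7 ± 13.9 CPM in LTearly, 43.5 ± 8.14 CPM in LTlate and 69.6 ± 13.2 CPM in BMTGMP, against 38.9 ± 6.31 CPM in wtGMP, and its BMTGMP libraries all lay above wtGMP (log2 fold change 0.83 ± 0.28, adjusted p = 0.071).

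The TCA cycle genes shared 1 direction in LTearly, and most of them did in LTlate and BMTGMP. Their log2 fold changes were negative for 16 of 16 genes in LTearly, 14 in LTlate and 14 in BMTGMP (16, 12 to 15 and 13 to 15 under the alternatives), and 142 of the 160 values of the 10 MLL-AF9 libraries (88.8%) lay below the gene's wtGMP mean. By group these were 61 of 64 values in LTearly, 41 of 48 in LTlate and 40 of 48 in BMTGMP. Over all 14542 genes tested, 6078 log2 fold changes were negative in LTearly, 7184 in LTlate and 6678 in BMTGMP. Within the wtGMP libraries 29 of 64 values lay below that mean. It is those libraries' own mean, so their count is no contrast to the others.

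Pyruvate dehydrogenase, the gate into the cycle, fell in LTearly in its catalytic subunit. Pdha1 had 108, 116, 167 and 156 CPM in LTearly, 152, 150.2 and 152 CPM in LTlate and 157, 209 and 133 CPM in BMTGMP libraries, against 222, 237, 215 and 208 CPM in wtGMP libraries. LTearly and LTlate lay below wtGMP in every library. Pdha1 gave log2 fold changes of -0.69 ± 0.18 in LTearly (adjusted p = 0.00682), -0.54 ± 0.20 in LTlate (adjusted p = 0.0783) and -0.41 ± 0.20 in BMTGMP (adjusted p = 0.252), so it fell in LTearly, and -0.55 ± 0.15 (adjusted p = 0.00992) over the 3 groups. Pdhb, the partner subunit, averaged 46 ± 7.39 CPM in LTearly, 54.5 ± 8.67 CPM in LTlate and 53.2 ± 11.8 CPM in BMTGMP, against 52.5 ± 11.6 CPM in wtGMP (SD) and passed no test. Dlat, the acetyltransferase core, averaged 34 ± 7.52 CPM in LTearly, 26.2 ± 9.34 CPM in LTlate and 44.4 ± 7.34 CPM in BMTGMP, against 51.1 ± 8.46 CPM in wtGMP, and fell in LTlate (-0.96 ± 0.32, adjusted p = 0.0487). The Dlat call was lost without LTlate replicate 2, 3 or 4 or wtGMP replicate 1, 3 or 4 (adjusted p = 0.0668 to 0.329).

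At the first steps of the cycle, Cs, citrate synthase, and Aco1, the cytosolic aconitase, passed no test, with log2 fold changes from -0.40 to -0.29 in LTearly, -0.43 to -0.08 in LTlate and -0.17 to -0.11 in BMTGMP. The NAD-dependent isocitrate dehydrogenase is built of 3 kinds of subunit. Idh3g, a regulatory subunit, had 43.3, 56.8, 77.5 and 82.3 CPM in LTearly, 75.1, 98.9 and 76.5 CPM in LTlate and 91, 74.9 and 57.8 CPM in BMTGMP libraries, against 120.2, 148, 129 and 119 CPM in wtGMP libraries. All 10 MLL-AF9 libraries lay below all wtGMP libraries. Idh3g gave log2 fold changes of -0.99 ± 0.22 in LTearly (adjusted p = 0.00181), -0.63 ± 0.24 in LTlate (adjusted p = 0.0991) and -0.79 ± 0.24 in BMTGMP (adjusted p = 0.0465), and -0.80 ± 0.18 (adjusted p = 0.00189) over the 3 groups. The BMTGMP call was lost without BMTGMP replicate 2 or 4 or wtGMP replicate 1, 2, 3 or 4 (adjusted p = 0.0698 to 0.317).

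Idh3a, the catalytic subunit, had 37, 10.9, 20.2 and 20.4 CPM in LTearly, 41.2, 44.3 and 35.5 CPM in LTlate and 45.7, 41.6 and 31.6 CPM in BMTGMP libraries, against 53.3, 41, 68.1 and 45 CPM in wtGMP libraries. LTearly alone lay wholly below wtGMP, and LTlate and BMTGMP overlapped it. Idh3a fell in LTearly, with log2 fold changes of -1.23 ± 0.32 in LTearly (adjusted p = 0.00583), -0.37 ± 0.34 in LTlate (adjusted p = 0.569) and -0.39 ± 0.34 in BMTGMP (adjusted p = 0.6). Idh3b, the other regulatory subunit, had 55.8, 72.8, 41.1 and 104 CPM in LTearly, 85.4, 109.7 and 81.4 CPM in LTlate and 105, 70.4 and 71.5 CPM in BMTGMP libraries, against 118, 57.5, 108 and 108 CPM in wtGMP libraries. It overlapped wtGMP in every group and passed no test.

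Oxoglutarate dehydrogenase showed a fall in Ogdh, its first subunit, which had 200.2, 123, 212 and 179.9 CPM in LTearly, 242, 232 and 219.7 CPM in LTlate and 262, 246 and 239 CPM in BMTGMP libraries, against 253, 232, 366 and 315 CPM in wtGMP libraries. LTearly lay below wtGMP, and LTlate and BMTGMP overlapped it. Its counts were non-whole in 12 of 14 libraries, so its level is uncertain. Ogdh gave log2 fold changes of -0.70 ± 0.18 in LTearly (adjusted p = 0.00558), -0.33 ± 0.20 in LTlate (adjusted p = 0.301) and -0.23 ± 0.19 in BMTGMP (adjusted p = 0.591). Over the 3 groups it gave -0.42 ± 0.15 (adjusted p = 0.0493), a call lost without LTearly replicate 2, LTlate replicate 2, 3 or 4, BMTGMP replicate 1, 2 or 4 or wtGMP replicate 1, 3 or 4 (adjusted p = 0.0501 to 0.266). Dlst, the succinyltransferase subunit, averaged 177 ± 17.7 CPM in LTearly, 195 ± 24.6 CPM in LTlate and 213 ± 17.6 CPM in BMTGMP, against 195 ± 5.26 CPM in wtGMP (SD) and passed no test.

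Succinyl-CoA ligase pairs Suclg1 with either Sucla2 (ADP-forming) or Suclg2 (GDP-forming). Sucla2 had 48, 43.4, 55.1 and 40.2 CPM in LTearly, 53.9, 55.7 and 69.7 CPM in LTlate and 46.1, 52.1 and 33.3 CPM in BMTGMP libraries, against 69.2, 87, 73.5 and 80.4 CPM in wtGMP libraries. LTearly and BMTGMP lay below wtGMP, and LTlate overlapped it. Sucla2 gave log2 fold changes of -0.73 ± 0.23 in LTearly (adjusted p = 0.0233), -0.37 ± 0.25 in LTlate (adjusted p = 0.378) and -0.82 ± 0.25 in BMTGMP (adjusted p = 0.0468), and -0.64 ± 0.19 (adjusted p = 0.0162) over the 3 groups. The calls were lost without LTearly replicate 2 or wtGMP replicate 2 or 4 (adjusted p = 0.0533 to 0.0636) in LTearly, without BMTGMP replicate 1, 2 or 4 or wtGMP replicate 1, 2, 3 or 4 (adjusted p = 0.056 to 0.34) in BMTGMP, and over the 3 groups without wtGMP replicate 2 or 4 (adjusted p = 0.0517 to 0.0645).

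Suclg2 had 16.9, 6.13, 8.07 and 30.0 CPM in LTearly, 13.3, 24.6 and 26.3 CPM in LTlate and 30.1, 34.6 and 12.6 CPM in BMTGMP libraries, against 53.3, 45.7, 47.5 and 25.3 CPM in wtGMP libraries. The ranges overlapped in each group. Suclg2 fell in LTearly, with log2 fold changes of -1.47 ± 0.44 in LTearly (adjusted p = 0.0167), -1.01 ± 0.47 in LTlate (adjusted p = 0.187) and -0.73 ± 0.46 in BMTGMP (adjusted p = 0.404), and gave -1.07 ± 0.34 (adjusted p = 0.0305) over the 3 groups. Those calls were lost without LTearly replicate 2 or 3 or wtGMP replicate 1 (adjusted p = 0.0522 to 0.0561) and without LTlate replicate 2, BMTGMP replicate 4 or wtGMP replicate 1, 2 or 3 (adjusted p = 0.0525 to 0.12). Suclg1 had 18.4, 60.2, 10.6 and 39.2 CPM in LTearly, 35.1, 37.3 and 36.4 CPM in LTlate and 45.5, 37.9 and 68.7 CPM in BMTGMP libraries, against 58.9, 58.3, 71.5 and 72.8 CPM in wtGMP libraries. One LTearly library was at the wtGMP level and another was the lowest of all. Suclg1 gave -1.02 ± 0.36 in LTearly (adjusted p = 0.0464), a fall lost without LTearly replicate 1 or 3 or wtGMP replicate 1, 2, 3 or 4 (adjusted p = 0.0658 to 0.114).

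At the end of the cycle, Fh1, fumarase, had 20.6, 46.1, 48.5 and 25.9 CPM in LTearly, 40.6, 56.5 and 69.5 CPM in LTlate and 58.3, 33.2 and 24.1 CPM in BMTGMP libraries, against 110.1, 86.6, 90.8 and 70.9 CPM in wtGMP libraries. Every MLL-AF9 library lay below every wtGMP library. Fh1 gave log2 fold changes of -1.36 ± 0.30 in LTearly (adjusted p = 0.00169), -0.69 ± 0.32 in LTlate (adjusted p = 0.19) and -1.21 ± 0.33 in BMTGMP (adjusted p = 0.0216), and -1.09 ± 0.24 (adjusted p = 0.00164) over the 3 groups. The BMTGMP call was lost without BMTGMP replicate 2 or 4 or wtGMP replicate 1 (adjusted p = 0.079 to 0.179). Mdh1, the cytosolic malate dehydrogenase of the malate-aspartate shuttle, had 34, 47.4, 40.4 and 50.5 CPM in LTearly, 48.9, 55.7 and 39.5 CPM in LTlate and 35.7, 48.8 and 53.2 CPM in BMTGMP libraries, against 83.9, 48.4, 86.7 and 97.8 CPM in wtGMP libraries. Most of these libraries were lower than wtGMP, with wtGMP replicate 2 the lowest of its group and inside their range. Mdh1 fell in LTearly and over the 3 groups, with -0.88 ± 0.26 in LTearly (adjusted p = 0.0138), -0.72 ± 0.28 in LTlate (adjusted p = 0.0969) and -0.79 ± 0.28 in BMTGMP (adjusted p = 0.0912), and -0.80 ± 0.21 (adjusted p = 0.00658) over the 3. The LTearly call was lost without wtGMP replicate 4 (adjusted p = 0.0592). Mdh2, the mitochondrial form, had 136, 145, 137 and 111 CPM in LTearly, 186, 192 and 171 CPM in LTlate and 114, 158 and 96 CPM in BMTGMP libraries, against 152, 152, 191 and 214 CPM in wtGMP libraries. It lay below wtGMP in LTearly only and passed no test.

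**Figure D3:**
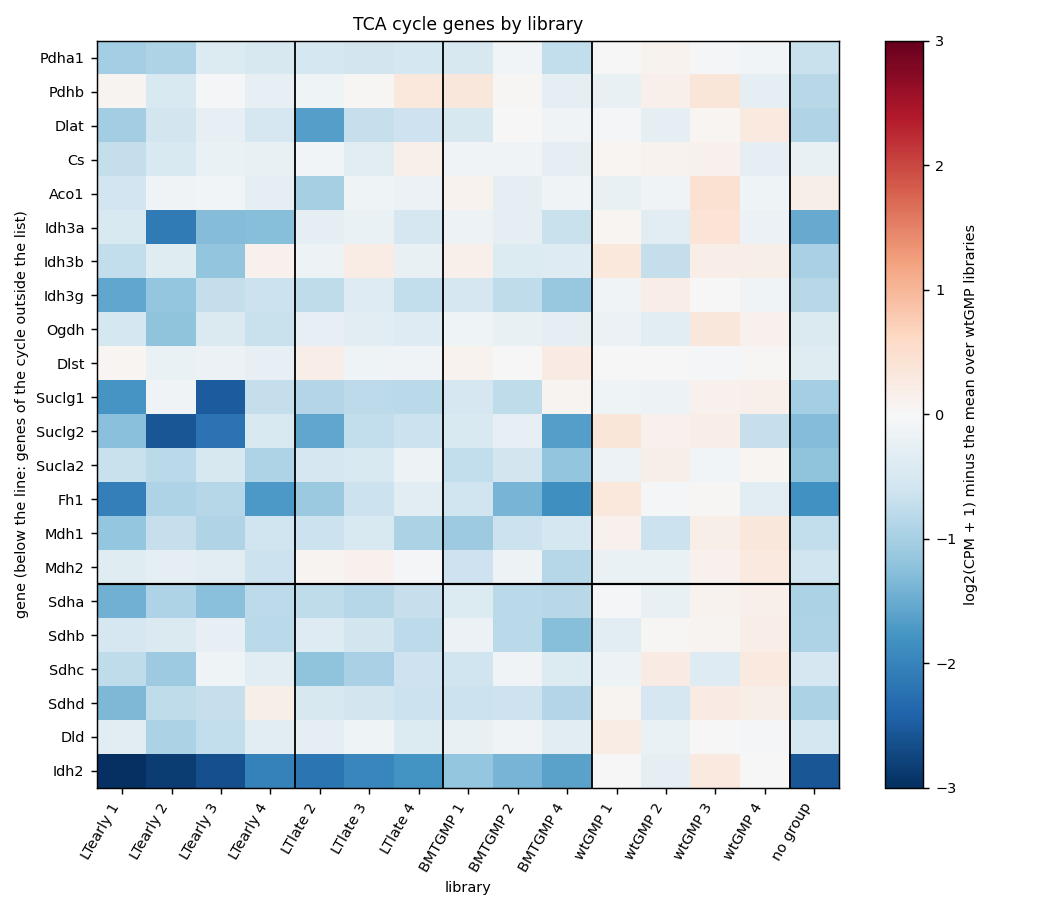
Log2(CPM + 1) minus the wtGMP mean for the 16 TCA cycle members and, below the line, 6 further genes of the cycle (rows) in each library (columns, grouped as LTearly, LTlate, BMTGMP, wtGMP and the library without a group). Blue cells are below the wtGMP mean; most of the left 3 blocks are blue, and Idh2 reaches -3.64, beyond the colour scale.

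Of the 5 side-reaction genes, 1 passed a test. Slc13a5, a sodium-coupled citrate importer best known from liver, had 2.20, 0, 8.81 and 17.7 CPM in LTearly, 2.04, 3.75 and 5.20 CPM in LTlate and 10.5, 21.4 and 25.6 CPM in BMTGMP libraries, against 0 in all 4 wtGMP libraries. One LTearly library was also at 0, while every LTlate and BMTGMP library held reads. A floor of 3 counts over the wtGMP group (0.175 CPM) was set. Against it the pooled Slc13a5 level was at least 55.1-fold higher in LTearly, at least 21.5-fold in LTlate and at least 98.3-fold in BMTGMP. These limits allow for counting error in wtGMP only, not for that of the other groups or for the spread between libraries. Slc13a5 passed the low-count filter only through the groups where it is high. Its edgeR calls (adjusted p = 0.000548, 0.00393 and 0.000338) are therefore description and not support. They are among the rises counted above in each comparison with wtGMP. Without LTearly replicate 4, which held 151 of the 184 LTearly reads, the LTearly limit was 17.9-fold. Without wtGMP replicate 1, the deepest of its group, the limits were 32.7-fold in LTearly, 12.7-fold in LTlate and 58.3-fold in BMTGMP. Me2, the mitochondrial malic enzyme, averaged 58.8 ± 5.01 CPM in LTearly, 70.1 ± 11.4 CPM in LTlate and 53.2 ± 2.56 CPM in BMTGMP, against 64.5 ± 5.69 CPM in wtGMP (SD). Pck2, the mitochondrial PEP carboxykinase, averaged 35.9 ± 18.2 CPM in LTearly, 54.7 ± 10.6 CPM in LTlate and 35.5 ± 10.3 CPM in BMTGMP, against 47.6 ± 11.7 CPM in wtGMP, Pcx, pyruvate carboxylase, 7.23 ± 4.60 CPM in LTearly, 2.48 ± 1.24 CPM in LTlate and 7.77 ± 1.58 CPM in BMTGMP, against 5.10 ± 2.32 CPM in wtGMP, and Fbp1, fructose-bisphosphatase, 6.47 ± 5.84 CPM in LTearly, 4.88 ± 3.58 CPM in LTlate and 4.94 ± 3.81 CPM in BMTGMP, against 2.94 ± 3.56 CPM in wtGMP. None of these 4 passed a test.

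Sums over members differed by pathway. The 16 TCA genes summed to 1143 ± 70.3 CPM in LTearly, 1408 ± 27.5 CPM in LTlate and 1377 ± 103 CPM in BMTGMP, against 1765 ± 117 CPM in wtGMP (SD, n = 4, 3, 3 and 4). Every MLL-AF9 library (highest 1438 CPM) lay below every wtGMP library (lowest 1639 CPM). The 22 glycolysis genes summed to 4017 ± 193 CPM in LTearly, 4299 ± 86 CPM in LTlate and 3425 ± 533 CPM in BMTGMP, against 3490 ± 211 CPM in wtGMP, with BMTGMP overlapping wtGMP. The 6 pentose phosphate genes summed to 1699 ± 260 CPM in LTearly, 1518 ± 116 CPM in LTlate and 1544 ± 296 CPM in BMTGMP, against 1334 ± 119 CPM in wtGMP, and all 3 groups overlapped wtGMP. The ratio of the glycolysis to the TCA sum was 3.53 ± 0.30 in LTearly, 3.05 ± 0.12 in LTlate and 2.48 ± 0.27 in BMTGMP, against 1.98 ± 0.12 in wtGMP. Its ranges did not overlap between MLL-AF9 libraries (2.31 to 3.93) and wtGMP (1.89 to 2.15). These sums weigh the abundant genes most, and no test was made on them. The order of the ratio, LTearly, LTlate, BMTGMP, wtGMP, is also the order of the summed late-neutrophil markers given above, and the part of those markers in the ratio was not tested.

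**Figure D4:**
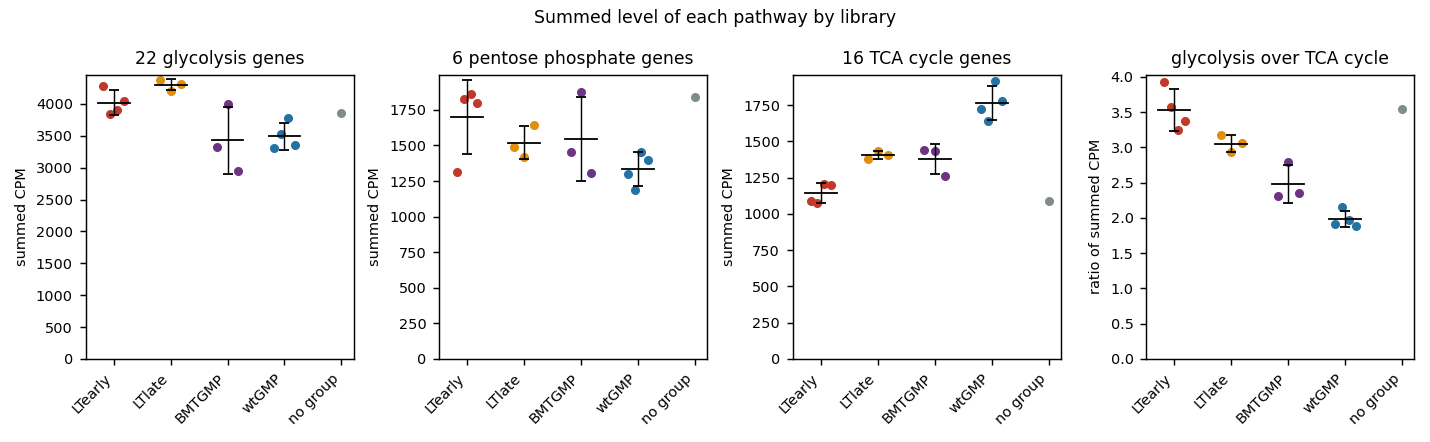
Summed CPM of the 22 glycolysis, 6 pentose phosphate and 16 TCA cycle genes and the ratio of glycolysis to TCA, by library (points) with group mean ± SD. The TCA sums of the MLL-AF9 groups all lie below wtGMP, and the ratio runs from 1.89 in wtGMP to 3.93 in LTearly.

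Counted gene by gene, 2 of the 49 members, Slc16a3 and Pgd, lay above wtGMP in all 10 MLL-AF9 libraries (4.57% of all genes did), and 3 of 49, Slc16a1, Idh3g and Fh1, lay below in all 10 (3.61% of all genes). Both counts are near the background.

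The MLL-AF9 groups were also compared with each other. LTearly against BMTGMP gave 3 called members, all higher in LTearly, where 3.4% of all genes were higher. Slc2a1 differed by 2.92 ± 0.61 on the log2 scale (adjusted p = 0.00525), Slc2a3 by 2.92 ± 0.62 (adjusted p = 0.0122) and Pkm by 0.50 ± 0.15 (adjusted p = 0.0484). For these 3 genes, chosen by the same comparison, every LTearly library lay above every BMTGMP library. Of all 49 members 6 did so, beside 7.78% of all genes. The Slc2a3 call was lost without BMTGMP replicate 1 or 4 (adjusted p = 0.055 to 0.069), so that 1 member remained without either BMTGMP library, and the Pkm call without LTearly replicate 1, 2 or 3 or BMTGMP replicate 1, 2 or 4 (adjusted p = 0.0517 to 0.348).

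LTearly against LTlate gave 0 called members with edgeR and 0 with DESeq2, with 6 at an unadjusted p under 0.05 (1728 of all 14542 genes were), where 0.206% of all genes were called. LTlate against BMTGMP gave 0 with edgeR, 10 at an unadjusted p under 0.05 (1745 of all genes), and 2 with DESeq2, where edgeR called 1.98% of all genes. The 2 were Eno1, at 381 ± 22.3 CPM in LTlate and 222 ± 100.3 CPM in BMTGMP, and Pkm, at 1059 ± 40.3 CPM in LTlate and 725 ± 106 CPM in BMTGMP.

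Genes of the same pathways outside the 49 were read from 4 further lists. Of 20 tested TCA and pyruvate genes, 0 rose in any comparison with wtGMP, while 6 fell in LTearly, 4 in LTlate, 3 in BMTGMP and 6 over the 3 groups, beside 8.93%, 3.25%, 2.17% and 7.58% of all genes. Idh2, the mitochondrial NADP-dependent isocitrate dehydrogenase, had 18.9, 33.3, 38.5 and 59.8 CPM in LTearly, 53.5, 62.7 and 70.5 CPM in LTlate and 109, 93.6 and 80.5 CPM in BMTGMP libraries, against 249.9, 199, 299.6 and 245 CPM in wtGMP libraries. All 10 libraries lay below wtGMP, and Idh2 gave -2.71 ± 0.26 in LTearly (adjusted p = 1.65e-08), -2.0 ± 0.28 in LTlate (adjusted p = 9.3e-06) and -1.40 ± 0.27 in BMTGMP (adjusted p = 0.000953). Idh2 was also lower in LTearly than in BMTGMP (-1.32 ± 0.26, adjusted p = 0.00229). Sdha, the flavoprotein of succinate dehydrogenase, averaged 193 ± 39.7 CPM in LTearly, 242 ± 14 CPM in LTlate and 259 ± 44.7 CPM in BMTGMP, against 414 ± 47.3 CPM in wtGMP (SD). Sdha fell in all 3 groups, with log2 fold changes of -1.09 ± 0.17 in LTearly (adjusted p = 3.03e-05), -0.77 ± 0.19 in LTlate (adjusted p = 0.00534) and -0.67 ± 0.19 in BMTGMP (adjusted p = 0.0231). The call of Sdha was lost in LTlate without LTlate replicate 3 (adjusted p = 0.0507) and in BMTGMP without BMTGMP replicate 2 or 4 or wtGMP replicate 3 or 4 (adjusted p = 0.0695 to 0.183). Idh1, the cytosolic NADP-dependent form, gave -0.66 ± 0.19 (adjusted p = 0.0155) over the 3 groups, lost without wtGMP replicate 1 or 3 (adjusted p = 0.0772 to 0.0855).

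Of 22 tested further glycolysis genes, 4 rose and 2 fell over the 3 groups, where 9.21% of all genes rose and 7.58% fell. Adpgk, an ADP-dependent glucokinase, had 209, 328, 254 and 202 CPM in LTearly, 160.4, 149 and 203 CPM in LTlate and 56.5, 232 and 108 CPM in BMTGMP libraries, against 50.3, 23.2, 49.8 and 31.7 CPM in wtGMP libraries. All 10 libraries lay above wtGMP, and Adpgk gave 2.66 ± 0.38 in LTearly (adjusted p = 0.000159), 2.13 ± 0.39 in LTlate (adjusted p = 0.00225) and 1.75 ± 0.39 in BMTGMP (adjusted p = 0.0125). Without BMTGMP replicate 2 its BMTGMP value was 1.05 (adjusted p = 0.0289). Gpd2, the mitochondrial glycerol 3-phosphate dehydrogenase that passes cytosolic electrons to the respiratory chain, averaged 204 ± 23.1 CPM in LTearly, 190.5 ± 29.6 CPM in LTlate and 172 ± 32.4 CPM in BMTGMP, against 108 ± 9.82 CPM in wtGMP (SD), and 0.80 ± 0.15 (adjusted p = 0.0004) over the 3 groups. Pfkfb4, a regulator of phosphofructokinase through fructose 2,6-bisphosphate, gave 1.62 ± 0.38 (adjusted p = 0.00306), and G6pc3, the glucose 6-phosphatase whose loss causes neutropenia in humans, -1.56 ± 0.46 (adjusted p = 0.0169). The call of G6pc3 was lost without wtGMP replicate 2 or 3 (adjusted p = 0.0549 to 0.0778).

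Of 7 tested further pentose phosphate genes, 1 rose and 1 fell over the 3 groups, beside the same shares of all genes. H6pd, the endoplasmic reticulum counterpart of G6pdx, averaged 50.9 ± 20.5 CPM in LTearly, 62.2 ± 5.56 CPM in LTlate and 91.5 ± 10.1 CPM in BMTGMP, against 38.2 ± 3.85 CPM in wtGMP (SD) and gave 0.80 ± 0.22 (adjusted p = 0.0119), a call lost without wtGMP replicate 1 (adjusted p = 0.0532). Prps2, a ribose-phosphate pyrophosphokinase that leads into nucleotide synthesis, gave -1.13 ± 0.26 (adjusted p = 0.00226).

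Of 11 regulators of glycolysis, 1 rose and 1 fell over the 3 groups, which is near the 9.21% and 7.58% of all genes. Txnip, which restrains glucose uptake, had 108, 162, 212 and 215 CPM in LTearly, 220.1, 190.0 and 175 CPM in LTlate and 140.5, 125 and 76 CPM in BMTGMP libraries, against 90.5, 82.3, 53.1 and 80.4 CPM in wtGMP libraries. LTearly and LTlate lay above wtGMP, and 1 BMTGMP library overlapped it. Txnip gave 1.19 ± 0.23 in LTearly (adjusted p = 0.000395), 1.35 ± 0.24 in LTlate (adjusted p = 0.000337) and 0.57 ± 0.24 in BMTGMP (adjusted p = 0.189). Myc, a transcription factor of growth, averaged 34.4 ± 11.3 CPM in LTearly, 64.5 ± 3.81 CPM in LTlate and 59.1 ± 9.12 CPM in BMTGMP, against 82.8 ± 22.1 CPM in wtGMP (SD) and fell in LTearly (-1.27 ± 0.27, adjusted p = 0.000817), with -0.71 ± 0.21 (adjusted p = 0.0192) over the 3 groups. The call of Myc over the 3 groups was lost without wtGMP replicate 1 or 2 (adjusted p = 0.0902 to 0.108). Hif1a, the oxygen-regulated subunit of hypoxia-inducible factor, had 837, 262, 519 and 182 CPM in LTearly, 338, 236 and 271 CPM in LTlate and 176, 212 and 208 CPM in BMTGMP libraries, against 184, 172, 192 and 135 CPM in wtGMP libraries, and rose in LTearly (1.39 ± 0.38, adjusted p = 0.0198). One LTearly library lay within the wtGMP range and replicate 1 stood highest. Whether Hif1a acts on any of the members was not tested. The call of Hif1a was lost without LTearly replicate 3 or wtGMP replicate 4 (adjusted p = 0.0528 to 0.0587). Without LTearly replicate 1 the log2 fold change of Hif1a was 0.88 (adjusted p = 0.0163). Arnt, the partner of Hif1a, gave 0.55 ± 0.22 (adjusted p = 0.0853) over the 3 groups and passed no test.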

How the data were processed

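RNA-seq libraries were made from total RNA of sorted bone marrow cells. The deposited table holds expected counts per RefSeq transcript on mm9, per the file headers, with up to 100 hits kept per read, so a read with several hits is divided (13.75% of values are not whole, tolerance 1e-06). The submitters' processing notes list Bowtie 0.9.9.1; other steps are not given in the sources used here. Of 16 count columns 15 matched a sample and 1 was not used; of 28847 transcripts, 26092 matched a gene (25977 in RefSeq, 115 in GENCODE), and transcripts without a gene held 3.51% to 4.16% of counts.

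The transcript with the highest mean count stood for each gene, and counts were rounded to whole numbers. edgeR 4.0.16 in R 4.3.3 (filterByExpr, TMM, robust quasi-likelihood, all 4 groups in 1 fit) gave log2 fold changes and Benjamini-Hochberg adjusted p-values over 14542 genes; SE is the fold change divided by the root of F, and CPM uses TMM-scaled library sizes. The common biological coefficient of variation was 74.8%. DESeq2 1.42.0 was an alternative, beside other scalings, filters, transcript sums, thinning, a replicate block, fits of only the groups compared, and leaving out libraries. The fit was also run on simulated counts with known changes, and its outcome there is not given here. Values in every library are given for called members, up to 8 per pathway by the averaged comparison's p, and for their isozymes; other pathway genes are limited to 4 per list, and 1 that the rule takes is not reported here. The members and lists were chosen with earlier results of these data known.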

Additional observations from a re-analysis of the deposited data

Results flagged for a closer look

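In LTearly against BMTGMP, which asks whether the change against wtGMP differs between those groups, 3 members passed the test of the difference: Slc2a1 by 2.92 on the log2 scale (adjusted p = 0.00525), Slc2a3 by 2.92 (adjusted p = 0.0122) and Pkm by 0.50 (adjusted p = 0.0484).

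Of 98 gene and group pairs with 4 libraries, 4 held a library far from the other 3, and chance gives about 1 in 20. All 4 were wtGMP libraries. Replicate 3 had 3.14 CPM of Aldoc where the other 3 had 0, 36.1 CPM of Aco1 where the nearest had 24.4, and 73.1 CPM of Me2 where the nearest had 62.1. Replicate 1 had 754 CPM of Pkm where the other 3 had 823 to 833.

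The library without a group lay above every wtGMP library for 6 of the 7 members that rose over the 3 MLL-AF9 groups. It held 81.8 CPM of Slc2a3 (highest wtGMP library 7.88), 755 of Gpi1 (471), 36.2 of Slc16a3 (3.87), 282 of G6pdx (181), 166 of Pgd (138) and 613 of Taldo1 (404). It held no read of Slc13a5, the seventh. How many of the 1340 genes that rose over the 3 groups did so was not counted, and members that fell were not checked. The count is therefore no result about the members.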

How the results depend on the processing

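Of 53 calls of members over the 7 comparisons, 30 were kept under every alternative, 23 were lost under at least 1 (9 of them under most), and none of the 53 changed sign. Of 290 member and comparison pairs that were not called, 80 changed sign under at least 1 alternative and 48 were called under at least 1. None of these counts was made over all genes. Settings other than a left-out library ended the calls of Pfkm, Suclg1 and Taldo1 in LTearly, Dlat in LTlate, Fh1, Idh3g and Sucla2 in BMTGMP, Gpi1, Ogdh, Suclg2 and Tpi1 over the 3 groups, and Pkm in LTearly against BMTGMP. Of named genes outside the 49, they ended those of Hif1a and Idh1 in LTearly, Adpgk in BMTGMP, and Idh2 in LTearly against BMTGMP. Depth was 2469470 to 6978756 counts in wtGMP. Thinned to equal depth, 17, 9, 4 and 15 members were called in LTearly, LTlate, BMTGMP and the 3 groups averaged. The genes called there were 2685, 1508, 896 and 2243 in that order.

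With only the groups compared in the fit, LTlate against wtGMP called 23 members (main 9) and 2483 genes (main 1568). In that setting BMTGMP against wtGMP called 11 members (main 6) and 1216 genes (main 957). LTearly against BMTGMP called 407 genes there (main 903), and LTlate against BMTGMP 2 members and 454 genes (main 0 and 288). DESeq2 called 10 members and 1401 genes in BMTGMP against wtGMP, and 2 members and 558 genes in LTlate against BMTGMP. It called 1474 genes in LTearly against BMTGMP and 251 genes in LTearly against LTlate (main 30). With transcripts summed per gene, BMTGMP against wtGMP called 3 members and 826 genes. Without a low-count filter, LTlate against BMTGMP called 1 member and 349 genes, and LTearly against LTlate 141 genes. A filter of 1 CPM in 3 libraries gave 52 genes in LTearly against LTlate, and libraries thinned to equal depth gave 47. Leaving out LTearly libraries 3 and 4 together gave 1 member and 173 genes in LTearly against LTlate and 2 members and 438 genes in LTlate against BMTGMP. The cause of these shifts was not tested.

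Leaving out 1 library of the compared groups at a time, LTearly against wtGMP called 13 to 18 members and 2339 to 3187 genes, LTlate against wtGMP 5 (without LTlate replicate 2) to 10 members and 921 (the same library) to 1332 genes, BMTGMP against wtGMP 3 (without wtGMP replicate 1) to 5 members and 709 to 892 genes, and the 3 groups averaged 11 (without wtGMP replicate 3 or 4) to 20 members and 1792 to 2683 genes. LTearly against LTlate gave 0 to 1 members (1 without LTearly replicate 3 or 4) and 4 to 209 genes (15 without LTearly replicate 2, 209 without LTearly replicate 4, 10 without LTlate replicate 3, 4 without LTlate replicate 4). LTearly against BMTGMP gave 1 (without BMTGMP replicate 1 or 4) to 4 members and 583 (without BMTGMP replicate 1) to 1288 genes. LTlate against BMTGMP gave 0 to 2 members (2 without BMTGMP replicate 2) and 155 (without LTlate replicate 2) to 308 genes, with 165 without BMTGMP replicate 4. Libraries of other groups enter through the shared spread. Leaving out 1 of them ended calls of Pfkm, Suclg1 and Taldo1 in LTearly, Dlat in LTlate, Idh3g and Sucla2 in BMTGMP (4 members without any 1 of the LTlate libraries) and Pkm in LTearly against BMTGMP. It added Ldhb and Pdk1 (without LTearly replicate 1), Pdk1 (LTearly replicate 2) and G6pdx and Ldhb (LTearly replicate 3) in LTlate against wtGMP, Taldo1 in BMTGMP against wtGMP (LTearly replicate 1), Eno1 and Pkm (without LTearly replicate 1), Pkm (LTearly replicate 3) and Slc2a1 (wtGMP replicate 3) in LTlate against BMTGMP, and Gapdh in LTearly against LTlate (BMTGMP replicate 4), where 64, 79 and 103 genes were called without BMTGMP replicate 1, 2 and 4.

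The median log2 fold change of all genes in LTearly against wtGMP (0.22) was 0.11 with thinning, 0.11 without LTearly replicate 1, 0.05 with only the groups compared and 0.32 without a low-count filter. The share of higher genes among those called in LTearly against LTlate was 56.7%, against 69.7% with DESeq2, 36.2% without a low-count filter, 36.5% with the filter of 1 CPM, 26.6% without LTearly libraries 3 and 4 and 32.5% without LTearly replicate 4. In LTlate against wtGMP, 2 glycolysis genes rose without LTlate replicate 2 and 3 without wtGMP replicate 4 (main 5). Deviations from the group means had a median correlation of -0.006 (-0.16 to 0.115) over 18 pairs of same-numbered libraries, with 1 pair over 0.1. The 55 pairs with different numbers had a median of 0.002 (-0.157 to 0.143), with 3 over 0.1. Such deviations are tied to each other in groups of 3 or 4 libraries, so this weak check cannot exclude a pairing by number. Pairing by the codes in the titles was not tried. With the replicate number as a block, 16, 11, 4 and 15 members were called in LTearly, LTlate, BMTGMP and the 3 groups averaged against wtGMP, and 0, 2 and 0 in LTearly against LTlate, LTearly against BMTGMP and LTlate against BMTGMP; the genes called were 2747, 1480, 858, 2295, 36, 805 and 299 in that order.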

Other observations

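The library titled LTearly in a column named LTlate gave the following values, set in no group. Its 22 glycolysis genes summed to 3853 CPM, its 6 pentose phosphate genes to 1839 CPM and its 16 TCA cycle genes to 1089 CPM, a ratio of glycolysis to TCA of 3.54. It held 22.1 CPM of Slc16a1, 14.8 of Slc2a1, 40.4 of Idh2 and 335 of Adpgk. Its 13 late-neutrophil markers summed to 19690 CPM.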
